A study of Mus musculus with 217 samples.

Results

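The transcripts described here are 32 genes of the sarcomere and of cardiac muscle, out of 52550 genes in the count files, followed in brain, lung and heart after lipopolysaccharide (LPS), the outer-membrane endotoxin of Gram-negative bacteria. The list was written out by gene name from what the proteins do. It holds 7 thick filament genes, 6 thin filament genes, 10 genes of the Z-disc and M-band, 4 genes of the calcium store, 2 natriuretic peptides and 3 genes of oxygen and creatine phosphate handling.

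The RNA came from adult C57BL/6J mice of the genotype Cdh5CreERT2/+; Rpl22HA/+ (RiboTag EC). In these mice tamoxifen (5 mg by gavage, 4 doses on alternate days, begun at 4 to 6 weeks of age) switches on Cre under the Cdh5 (VE-cadherin) promoter, and Cre adds a hemagglutinin (HA) tag to the ribosomal protein RPL22 in endothelial cells (ECs). All mice shared this genotype and the tamoxifen, the 0 hr controls included. The others were given LPS at 10 mg/kg intraperitoneally and were sampled at 6, 24, 48, 72 or 168 hr. Tagged ribosomes were pulled from a homogenate of the whole organ, so the tag is endothelial but the lysate held the RNA of every cell of the organ. The 0 hr mice are labelled as controls, and the study's methods say that they received phosphate-buffered saline. Kept libraries at 0, 6, 24, 48, 72 and 168 hr numbered 5, 5, 4, 6, 4 and 4 in heart, the same in brain, and 4, 4, 2, 6, 4 and 4 in lung. The labels do not name the mouse of each library, so p-values measure the spread between libraries.

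The sarcomere is the contractile unit of striated muscle. Myosin of the thick filament pulls on actin of the thin filament when calcium, let out of the sarcoplasmic reticulum by the ryanodine receptor RYR2, binds troponin C, and the pump SERCA2 (Atp2a2), held back by phospholamban (Pln), takes the calcium up again. The Z-disc anchors the thin filaments and carries stretch-responsive proteins such as CARP (Ankrd1). In the adult mouse heart these genes are expressed above all by cardiomyocytes, where α-myosin (Myh6) prevails over β-myosin (Myh7) and where Ankrd1 and the natriuretic peptides rise with mechanical load. Cdh5 is an endothelial gene, and whether a member's reads came from tagged EC ribosomes or from cardiomyocyte RNA carried through the precipitation was not tested. In such bulk samples, fewer cells of a type and less RNA per cell cannot be told apart.

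Promoters are shown for 4 members that moved in heart in opposite directions, Ankrd1 and Nppb upward and Actc1 and Pln downward. Each is 300 bases of the gene's own strand from RefSeq on GRCm38.p6, from 250 bases before the annotated start to 50 after it. Of the 32 members, 28 matched a window in that table, with 38 windows in all. Capitals mark matches to the 4 motifs searched, all sought on both strands except the TATA box, which was sought on the gene's strand. The motif of the GATA factors was spelled AGATAA. The MCAT motif was spelled CATTCC and the TATA box was spelled TATAAA, and the last is the CArG box, the element bound by serum response factor. A match on the opposite strand is printed as its reverse complement, which is TTATCT for the GATA motif. For the MCAT motif it is GGAATG. No match in these 4 windows overlapped another.
Ankrd1 (chr19:36119795-36120094, minus strand): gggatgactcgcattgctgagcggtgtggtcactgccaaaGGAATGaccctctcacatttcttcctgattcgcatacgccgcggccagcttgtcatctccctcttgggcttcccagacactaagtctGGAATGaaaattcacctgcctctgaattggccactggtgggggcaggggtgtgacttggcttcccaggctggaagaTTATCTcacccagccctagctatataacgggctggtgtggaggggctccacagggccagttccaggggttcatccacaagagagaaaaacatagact
Nppb (chr4:147985650-147985949, plus strand): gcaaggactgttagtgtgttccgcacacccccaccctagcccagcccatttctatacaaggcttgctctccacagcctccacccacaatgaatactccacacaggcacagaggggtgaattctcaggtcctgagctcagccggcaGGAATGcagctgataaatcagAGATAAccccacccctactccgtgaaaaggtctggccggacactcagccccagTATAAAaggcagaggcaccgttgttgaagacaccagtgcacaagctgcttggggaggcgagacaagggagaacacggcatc
Actc1 (chr2:114052826-114053125, minus strand): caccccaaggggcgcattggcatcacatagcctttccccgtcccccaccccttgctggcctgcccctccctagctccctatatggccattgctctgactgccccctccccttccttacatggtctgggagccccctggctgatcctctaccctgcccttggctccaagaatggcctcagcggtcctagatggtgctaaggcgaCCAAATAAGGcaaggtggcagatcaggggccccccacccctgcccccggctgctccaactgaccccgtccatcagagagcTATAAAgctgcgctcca
Pln (chr10:53337436-53337735, plus strand): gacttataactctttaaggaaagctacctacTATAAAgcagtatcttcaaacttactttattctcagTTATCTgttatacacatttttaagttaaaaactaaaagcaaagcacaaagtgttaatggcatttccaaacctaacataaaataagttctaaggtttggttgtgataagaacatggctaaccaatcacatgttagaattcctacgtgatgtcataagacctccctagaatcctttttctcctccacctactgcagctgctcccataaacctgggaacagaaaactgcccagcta

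The Ankrd1 window held 2 MCAT matches, at -210 and -123 from the start, and a GATA match at -47. The Nppb window held an MCAT match at -105, a GATA match at -84 and a TATA match at -31. The Actc1 window held a CArG box at -47 and a TATA match at 33 bases into the transcript. The Pln window held a TATA match at -219 and a GATA match at -183. Over the 38 member windows, MCAT was present in 28.9%, GATA in 21.1%, CArG in 18.4% and TATA in 13.2%, and over all 32851 promoter windows the shares were 14.7%, 11.2%, 1.63% and 8.32%. These matches are descriptions of letters, and nothing about a factor's binding follows from their presence or absence.

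Depth ranged from 8136031 to 33050750 counts on genes per heart library, from 7226796 to 32891759 in brain, and from 284457 to 43417945 in lung. The share of reads on genes was 43.7% to 68.9% in heart and 53.4% to 70.0% in brain, and 3.405% to 61.0% in lung. A sum of 6 genes that LPS is known to induce (Lcn2, Sele, Icam1, Cxcl1, Socs3 and Saa3), put together after the data were seen, served to check the times given in the labels. It was 123 to 183 CPM (counts scaled to library size within each tissue) in the 0 hr heart libraries and 9378 to 17038 in heart 6 hr replicates 1 to 4, but 218 in heart 6 hr replicate 5. In brain it was 38.8 to 98.6 at 0 hr, 10848 to 13449 at 6 hr in replicates 1 to 4 and 418 in replicate 6, which is above the 0 hr brains. In lung it was 72.2 to 234 at 0 hr, 4130 to 15960 at 6 hr in replicates 1 to 3 and 246 in replicate 4. That lung library is the one with 284457 counts, so the check is weak there. The run names give these 3 low libraries at 6 hr the same time and series but no animal number, so a common mouse is inferred. Heart 72 hr replicate 1 stood at 157, against 1503 to 5278 in the other 72 hr hearts. By the run names it may share its mouse with brain and lung 72 hr replicate 1, which stood at 1912 and 2701 CPM. The 3 low libraries at 6 hr and heart 72 hr replicate 1 were kept under their labels. Counts without them are given where the fit was made. The run names also number the libraries in series, which the labels do not call a batch. Series 1 and 2 have 0 hr libraries, series 4 has none, and series entered each fit as a covariate.

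In heart at 0 hr the 32 members summed to 8850 to 16000 CPM, beside 13606 to 15652 CPM for 13 endothelial markers, none of which was at 0 in any heart library. Per kilobase of transcript, the highest members were the oxygen store Mb at a median of 1020 CPM per kb, the ventricular light chain Myl2 at 804, tropomyosin Tpm1 at 601 and cardiac troponin T Tnnt2 at 576. The lowest of the 32 was Myh7 at 0.633 CPM per kb, while its neighbour Myh6, 3756 bases away on the same strand of chromosome 14, stood at 192.

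After LPS, Ankrd1 rose in heart from 6 to 72 hr, Xirp1 and Nppb rose at 24 and 48 hr, Myh7 rose at 48 hr, Actc1 fell at 24 and 48 hr, and Pln, Casq2 and Nebl fell at 24 hr. At 6 hr Mybpc3, Tnnt2, Tnnc1, Tcap and Myom2 also rose. The median log2 fold change of the 32 members was 0.55 at 6 hr, with 30 of them above 0 (0.74 without 6 hr replicate 5, and 0.16 with 22 above 0 when total counts were the library sizes), and -0.28, -0.26, -0.04 and -0.03 at the later times. Relative to 0 hr, 6 of the 32 rose at 6 hr and none fell. At 24 hr 3 rose and 4 fell, followed by 4 upward and 1 downward at 48 hr, 1 upward at 72 hr and none by 168 hr (adjusted p under 0.05, edgeR quasi-likelihood test over 16024 genes). Over all genes, 22.4% rose and 20.3% fell at 6 hr, 9.07% and 7.11% at 24 hr, 3.08% and 1.11% at 48 hr, and 0.275% and 0% at 72 hr. The members' shares were thus under the background at 6 hr (18.8% rose), near it at 24 hr (9.38% rose and 12.5% fell) and above it at 48 hr (12.5% rose). At 168 hr the count was also 0 by DESeq2, with 5 members at an unadjusted p under 0.05 by edgeR and 6 by DESeq2. Over the whole course 12 members differed between times (37.5%, against 56% of all genes). These were Actc1, Ankrd1, Casq2, Ldb3, Mybpc3, Myh7, Nebl, Nppb, Pln, Tnnt2, Xirp1 and Xirp2.

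**Figure D1:**
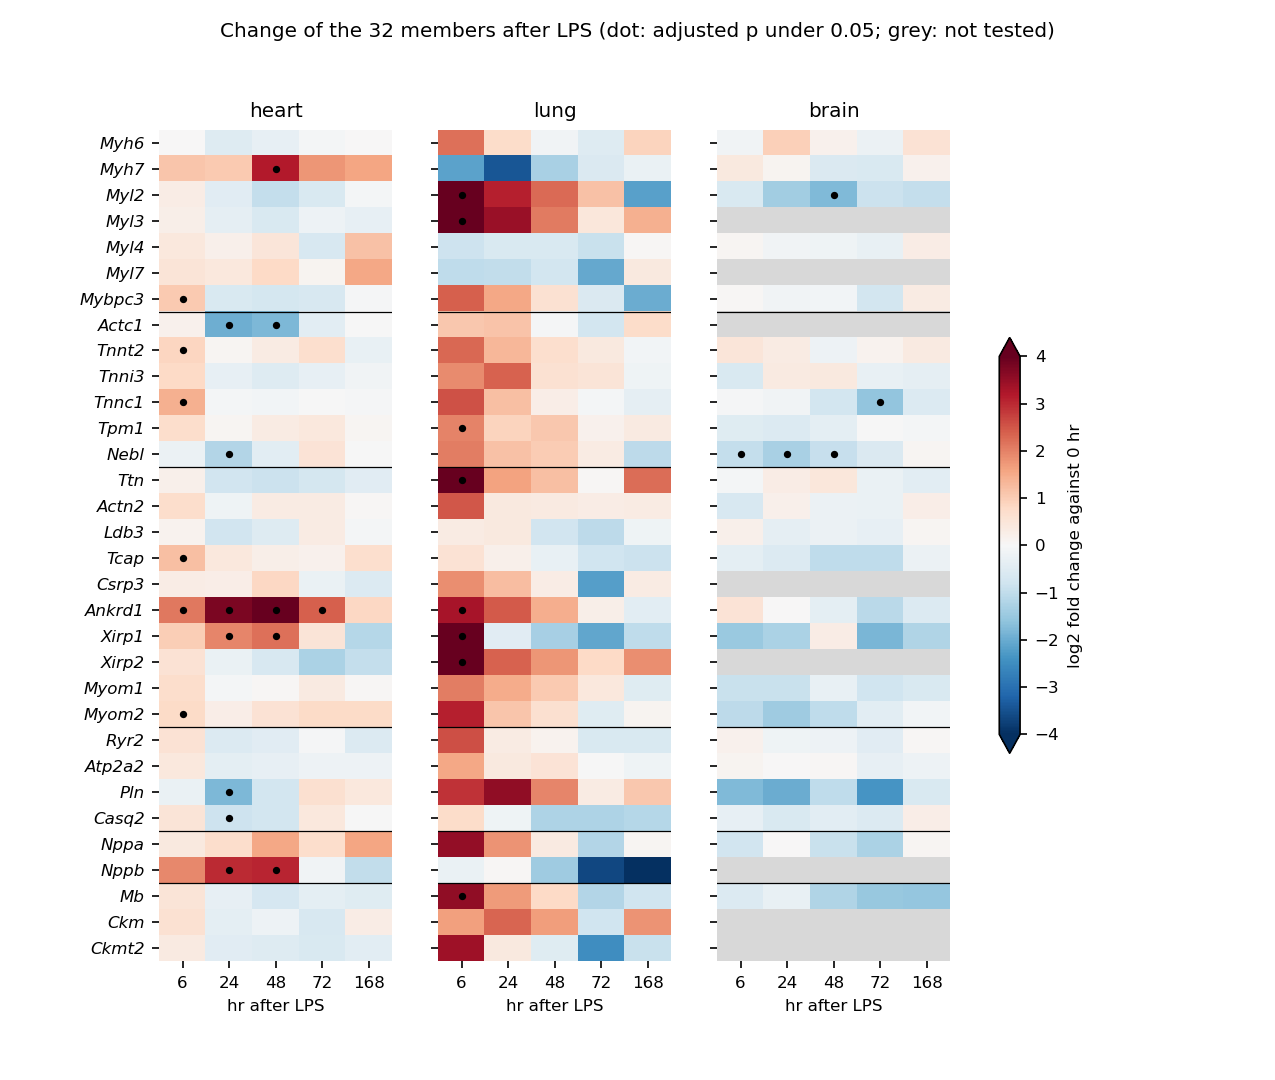
Log2 fold change of each member against 0 hr at 5 times after LPS (columns) in heart, lung and brain; rows are the 32 genes, lines part the role groups, dots mark adjusted p under 0.05 and grey marks genes not tested. Colours stop at 4 in either direction. Heart calls are scattered over 13 genes, lung calls stand at 6 hr only, and brain calls are all downward.

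Ankrd1, the stretch-responsive Z-disc and nuclear protein CARP, had the largest change and the longest course. Its level was 335, 134, 144, 99.0 and 133 CPM in the 0 hr hearts and 1121, 523, 997, 472 and 120 CPM at 6 hr, the last of these being replicate 5. It stood at 2659, 1983, 3524 and 2648 CPM at 24 hr, and at 48 hr the lowest, median and highest of 6 libraries were 1995, 2868 and 4440 CPM. At 72 hr the values were 195, 1269, 1029 and 1251 CPM, the low one being replicate 1, and at 168 hr they were 191, 418, 368 and 492 CPM. All 24 and 48 hr hearts lay above all 0 hr hearts, while the 6, 72 and 168 hr groups overlapped with 0 hr. From 6 to 72 hr its log2 fold changes were 2.10 ± 0.51 (SE), 3.77 ± 0.54, 4.04 ± 0.52 and 2.38 ± 0.50, with adjusted p of 0.00279, 0.000585, 0.000314 and 0.0404 by edgeR. The 48 hr value is a 16.4-fold rise. Within series 1 and series 2 the differences were 3.65 and 4.00 at 24 hr, 4.15 and 4.14 at 48 hr and 2.28 and 2.00 at 72 hr. At 6 hr they were -0.82 in series 1, where replicate 5 is the single library, and 2.55 in series 2. Each 24 hr value, and that of series 1 at 72 hr, also rests on 1 library after LPS. Without replicate 5 the 6 hr change was 2.53 ± 0.41 (adjusted p 1.1e-05, edgeR). Without 72 hr replicate 1 the 72 hr change was 2.72 ± 0.47 (adjusted p 0.0031, edgeR), and the call was lost when any of 19 of the other hearts was left out, with an adjusted p of up to 0.434.

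**Figure D2:**
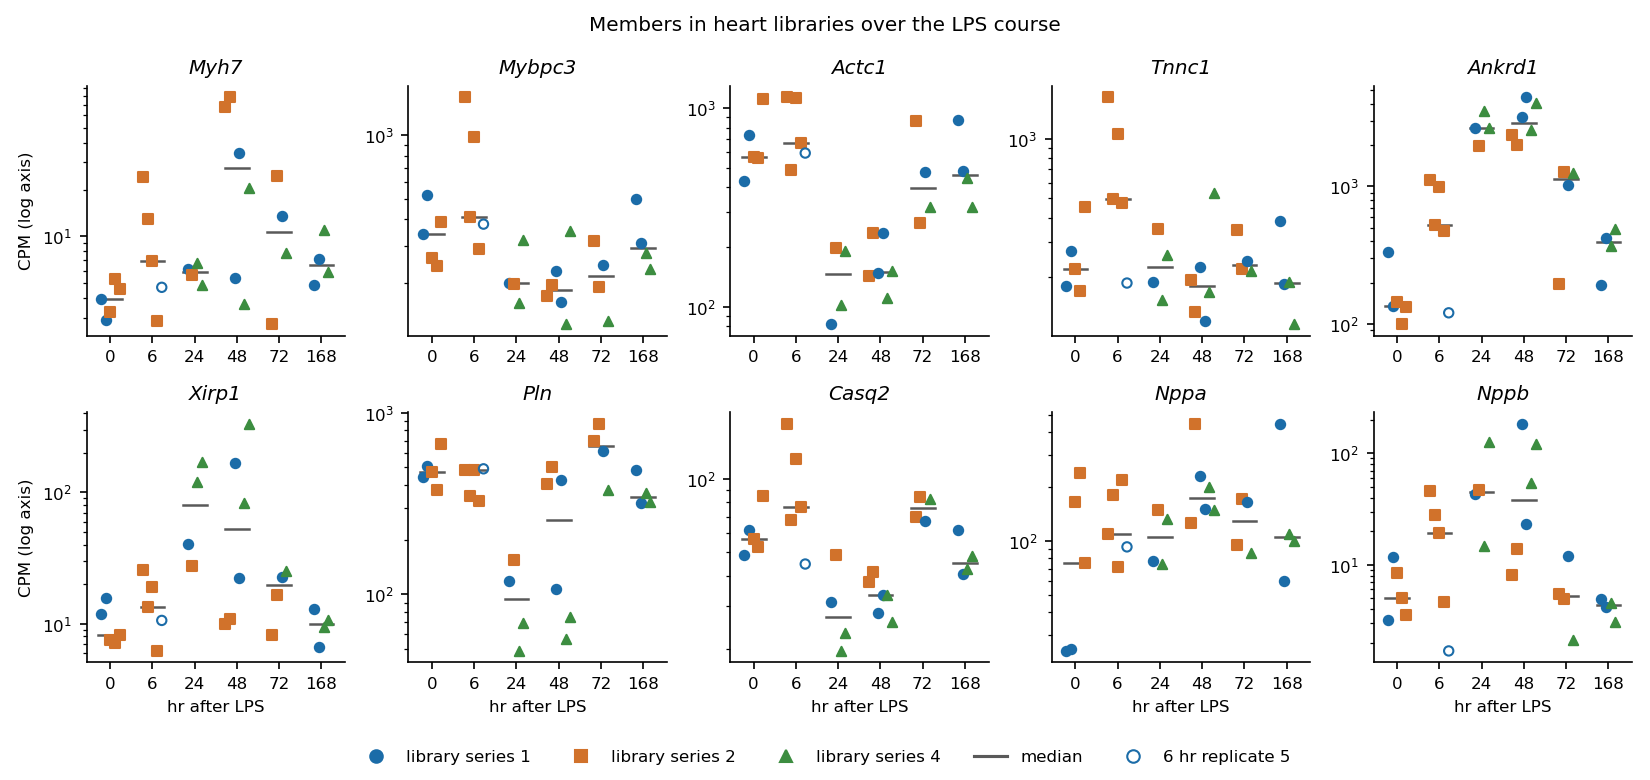
CPM (log axis) of 10 members in each of 28 heart libraries by hr after LPS; each symbol is a library, its shape and colour give the library series, the open circle is 6 hr replicate 5, and the bar is the median. Ankrd1 at 24 and 48 hr lies above all 0 hr libraries and Actc1 at these times lies below them, while Pln, Xirp1, Nppb and Myh7 split widely at 48 hr.

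Xirp1, an actin-binding repeat protein of the intercalated disc and Z-disc, rose at 24 and 48 hr from a low level. It was 11.9, 15.6, 7.56, 7.09 and 8.26 CPM at 0 hr and 40.2, 27.4, 119 and 170 CPM at 24 hr, with no overlap. At 48 hr the 6 hearts spanned 10.0 to 333 CPM (median 52.4) and overlapped with 0 hr. Its log2 fold change was 1.94 ± 0.63 at 24 hr (adjusted p 0.0401, edgeR) and 2.21 ± 0.61 at 48 hr (adjusted p 0.0387). Within series 1 and 2 it was 1.55 and 1.83 at 24 hr (1 library each after LPS), and 2.16 and 0.44 at 48 hr. Leaving out any of the 5 hearts at 0 hr ended both calls, as did any of the 4 hearts at 24 hr for the 24 hr call and replicate 3 or 7 at 48 hr for the 48 hr call, and in all 12 and 10 of the 28 hearts did so (adjusted p up to 0.143 and 0.208). At 6, 72 and 168 hr the values of 6.21 to 25.8, 8.13 to 25.3 and 6.68 to 13.0 CPM overlapped with 0 hr.

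Of the other Z-disc and M-band genes, Tcap (telethonin, the cap of titin) and Myom2 (an M-band crosslinker) passed at 6 hr only. Tcap stood at 841, 446, 366, 221 and 506 CPM at 0 hr and at 1213, 522, 2176, 1062 and 275 CPM at 6 hr, so the groups overlapped, with a log2 fold change of 1.19 ± 0.43 (adjusted p 0.0278, edgeR). The change of Myom2 was 0.75 ± 0.30 (adjusted p 0.0480). Without 0 hr replicate 3 or 4, or 6 hr replicate 1 or 3, Ankrd1 was the 1 member called at 6 hr, so that the calls of Tcap, Myom2, Mybpc3, Tnnc1 and Tnnt2 were all lost. The giant spring Ttn, α-actinin Actn2, Csrp3 and Myom1 did not pass at any time or over the course. Ldb3 and Xirp2 passed over the course alone (adjusted p 0.0322 and 0.00775, edgeR).

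The natriuretic peptides are hormones that the heart releases under wall stretch. Nppb (BNP) stood at 3.19, 11.6, 8.44, 5.08 and 3.56 CPM at 0 hr, and at 45.9, 28.1, 19.5, 4.65 and 1.68 CPM at 6 hr. At 24 hr it was 42.9, 47.2, 14.8 and 127 CPM, all above 0 hr, and at 48 hr 8.09 to 184 CPM (median 38.4), which overlapped. At 72 hr it was 2.12 to 12.0 CPM and at 168 hr 3.08 to 4.94 CPM, and both groups overlapped with 0 hr. The log2 fold change was 2.98 ± 0.88 at 24 hr (7.87-fold, adjusted p 0.0274, edgeR) and 3.05 ± 0.87 at 48 hr (adjusted p 0.0453), and 1.91 ± 0.81 at 6 hr (adjusted p 0.0598). Within series 1 and 2 it was 2.79 and 3.12 at 24 hr (1 library each after LPS), and 3.39 and 0.97 at 48 hr. The 24 hr call was lost without 0 hr replicate 1, 4 or 5 or 24 hr replicate 2 or 5 (adjusted p up to 0.133), and the 48 hr call without any of 19 of the 28 hearts (adjusted p up to 0.208). Without 6 hr replicate 5 the 6 hr change was 2.37 ± 0.72 (adjusted p 0.0073, edgeR), and the Nppb calls stood at 6, 24 and 48 hr.

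Nppa (ANP), which lies 13516 bases from Nppb on the same strand of chromosome 4, did not pass at any time. It stood at 24.4, 25.0, 165, 238 and 75.1 CPM at 0 hr, where the first pair of values is series 1 and the others are series 2. The later groups spanned 71.8 to 217 CPM at 6 hr, 74.2 to 149 at 24 hr, 126 to 446 at 48 hr (median 174), 85.9 to 171 at 72 hr and 60.1 to 445 at 168 hr. The largest log2 fold change from 6 to 72 hr was 1.56 ± 0.54 at 48 hr (adjusted p 0.0990, edgeR), and it was 2.90 within series 1 and 0.72 within series 2. The atrial light chains Myl4 and Myl7 stood at 7.61 to 52.5 and 4.32 to 57.0 CPM at 0 hr and did not pass at any time. All 3 are atrial genes, and in the 168 hr hearts replicate 1 had the highest value of each, 445, 88.7 and 120 CPM.

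Myh7, the β-myosin heavy chain of the fetal and slow-muscle programme, rose at 48 hr, whereas Myh6 did not pass at any time. Myh7 was 3.95, 2.91, 3.29, 5.28 and 4.60 CPM at 0 hr, 24.1, 13.0, 6.99, 2.86 and 4.70 at 6 hr, and 6.15, 5.68, 6.69 and 4.85 at 24 hr. The 48 hr hearts ran from 3.69 to 78.3 CPM with a median of 27.4, the 72 hr hearts had 2.71, 24.4, 13.5 and 7.80 CPM, and the 168 hr hearts had 4.84, 7.16, 11.1 and 5.94 CPM. The 48 hr group overlapped with 0 hr through replicate 6 alone. The log2 fold change at 48 hr was 3.16 ± 0.63 (8.93-fold, adjusted p 0.00454, edgeR), with 1.98 within series 1 and 4.05 within series 2, and it held without each heart in turn. Myh6 stood at 745 to 1547 CPM at 0 hr and its log2 fold changes lay between -0.52 and 0.01. The Myh7 locus overlaps an antisense transcript, and without the strand setting of the counting their reads cannot be told apart. Mybpc3, the myosin-binding protein of the thick filament, stood at 343, 519, 262, 242 and 390 CPM at 0 hr and at 1503, 410, 976, 291 and 380 CPM at 6 hr. Its 6 hr change of 1.04 ± 0.40 passed (adjusted p 0.0402, edgeR) although the groups overlapped, and it was -0.15 within series 1 and 1.15 within series 2. It was lost without any of 7 hearts, among them 6 hr replicates 1 and 3 (adjusted p up to 0.210). The light chains Myl2 and Myl3 did not pass, with log2 fold changes of -0.96 to 0.31 and -0.61 to 0.23.

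Actc1, cardiac α-actin, had the largest fall of the thin filament genes. It stood at 431, 736, 567.97, 561 and 1120 CPM at 0 hr and at 1136, 487, 1129, 673 and 595 CPM at 6 hr. It was 81.5, 198, 102 and 192 CPM at 24 hr and 111 to 237 CPM (median 149) at 48 hr, so that all 10 of these hearts lay below all 0 hr hearts. It was 861, 264, 477 and 318 CPM at 72 hr and 879, 481, 446 and 320 CPM at 168 hr, which overlapped with 0 hr. The log2 fold change was -1.94 ± 0.41 at 24 hr (3.85-fold lower, adjusted p 0.00404, edgeR) and -1.80 ± 0.34 at 48 hr (3.48-fold lower, adjusted p 0.0027). Within series 1 and 2 it was -2.79 and -1.84 at 24 hr (1 library each after LPS) and -1.59 and -1.94 at 48 hr. Both calls held without each heart in turn.

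Of the other thin filament genes only Nebl, the cardiac nebulin-like protein, also fell at 24 hr. It went from 45.4 to 63.6 CPM at 0 hr to 23.5, 24.1, 15.2 and 18.8 CPM at 24 hr with no overlap, a log2 fold change of -1.18 ± 0.34 (adjusted p 0.0260, edgeR). At 6 hr Tnnc1 and Tnnt2 rose. Tnnc1, the calcium-binding troponin C, stood at 181, 272, 220, 170 and 451 CPM at 0 hr and at 1614, 499, 1055, 476 and 187 CPM at 6 hr, the last being replicate 5. Its log2 fold change was 1.42 ± 0.48 (adjusted p 0.0215, edgeR), with -0.25 within series 1 and 1.64 within series 2, and it stood at 153 to 352 CPM at 24 hr. The call was lost without 0 hr replicate 3 or 4 or 6 hr replicate 1 or 3 (adjusted p up to 0.0994). Tnnt2 rose by 0.87 ± 0.30 (adjusted p 0.0235) at 6 hr, and Tnni3 and Tpm1 stood at 0.79 ± 0.38 and 0.70 ± 0.33 without passing (adjusted p 0.0964 and 0.0919).

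In the calcium store, Pln and Casq2 fell at 24 hr. Pln, the brake on the SERCA2 pump, stood at 442, 511, 470, 373 and 668 CPM at 0 hr and 483, 347, 481, 325 and 490 CPM at 6 hr, and then at 118, 154, 48.7 and 69.7 CPM at 24 hr, below all 0 hr hearts. At 48 hr it ran from 56.7 to 499 CPM (median 255), at 72 hr it was 695, 868, 617 and 374 CPM and at 168 hr 482, 320, 361 and 322 CPM. Its log2 fold change was -1.79 ± 0.39 at 24 hr (3.45-fold lower, adjusted p 0.00549, edgeR), and the call held without each heart in turn. Within series 1 and series 2 the change was -2.01 and -1.66, from 1 library each after LPS. Most of the Pln locus is overlapped by another gene, Cep85l, so reads of the pair may be split by the counting. Casq2, the calsequestrin that buffers calcium in the store, stood at 48.5, 61.6, 56.6, 52.2 and 85.4 CPM at 0 hr and at 31.0, 48.4, 19.6 and 23.2 CPM at 24 hr. The 24 hr hearts lay just below the 0 hr hearts, with a log2 fold change of -0.84 ± 0.27 (adjusted p 0.0374, edgeR), which was lost without any of 8 hearts, namely 0 hr replicates 1, 2 and 5, the 4 at 24 hr and 72 hr replicate 5 (adjusted p up to 0.0820). At 48 hr Casq2 was 25.8 to 41.2 CPM, again below all 0 hr hearts, at -0.73 ± 0.24 (adjusted p 0.0807). The pump Atp2a2 and the release channel Ryr2 did not pass, at -0.39 ± 0.29 and -0.54 ± 0.35 at 24 hr.

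Mb, Ckm and Ckmt2, which store oxygen and shuttle creatine phosphate, did not pass at any time. Their log2 fold changes at 24 hr were -0.32, -0.39 and -0.46. In all, 19 of the 32 members passed at no single time in heart, with log2 fold changes between -1.26 and 1.59.

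The 6 hr hearts were the most uneven. The members summed to 26564 and 24859 CPM in replicates 1 and 3, and to 12481, 12574 and 11031 in replicates 2, 4 and 5, against 8850 to 16000 at 0 hr. The sum of 31 other cardiomyocyte genes moved with it, at 4699 and 4129 CPM in replicates 1 and 3 and 2086, 2076 and 1810 in the others. Replicates 1 and 3 also had the lowest shares of reads on genes of the 28 hearts, at 50.5% and 43.7%. Their scaling factors, at 0.740 and 0.734, were the lowest as well. The part of library quality in the 6 hr values was not tested. At the same time 9 of the 13 endothelial markers fell (20.3% of all genes did) and 1 rose, and their sum was 7261 to 8783 CPM in replicates 1 to 4 but 15240 in replicate 5. All 4 neutrophil markers that could be tested rose at 6 hr, from a sum of 0.611 to 0.939 CPM at 0 hr to 38.5 to 59.3 CPM in replicates 1 to 4, with 0.561 CPM in replicate 5. Of 6 fibroblast and 7 smooth muscle markers, 3 each fell at 6 hr and 1 smooth muscle marker rose, and of 10 skeletal muscle markers 4 could be tested and 1 fell. Neutrophil markers also rose at 24 hr (3 of the 4), 48 hr (4) and 72 hr (3), with sums of 7.76 to 31.1, 11.7 to 45.0 and 1.41 to 17.8 CPM. Of 6 macrophage markers 1 fell at 6 hr, 1 rose at 24 hr and 3 rose at 48 hr. The part of these cells in the results from 6 to 72 hr was not tested. Without replicate 5, 10 members rose at 6 hr, against 27.8% of all genes, while Myom2 no longer passed (adjusted p 0.0505, edgeR), and the 10 were Ankrd1, Casq2, Mybpc3, Myom1, Nppb, Tcap, Tnnc1, Tnni3, Tnnt2 and Tpm1. With total counts as the library size in place of the scaling factors, Ankrd1 alone rose at 6 hr (1.63 ± 0.46, adjusted p 0.0084, edgeR), while the median of all genes moved from -0.05 to -0.39. The 24 hr falls of Actc1, Pln, Nebl and Casq2 and the rises of Ankrd1, Xirp1 and Nppb were also called on that scale.

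**Figure D3:**
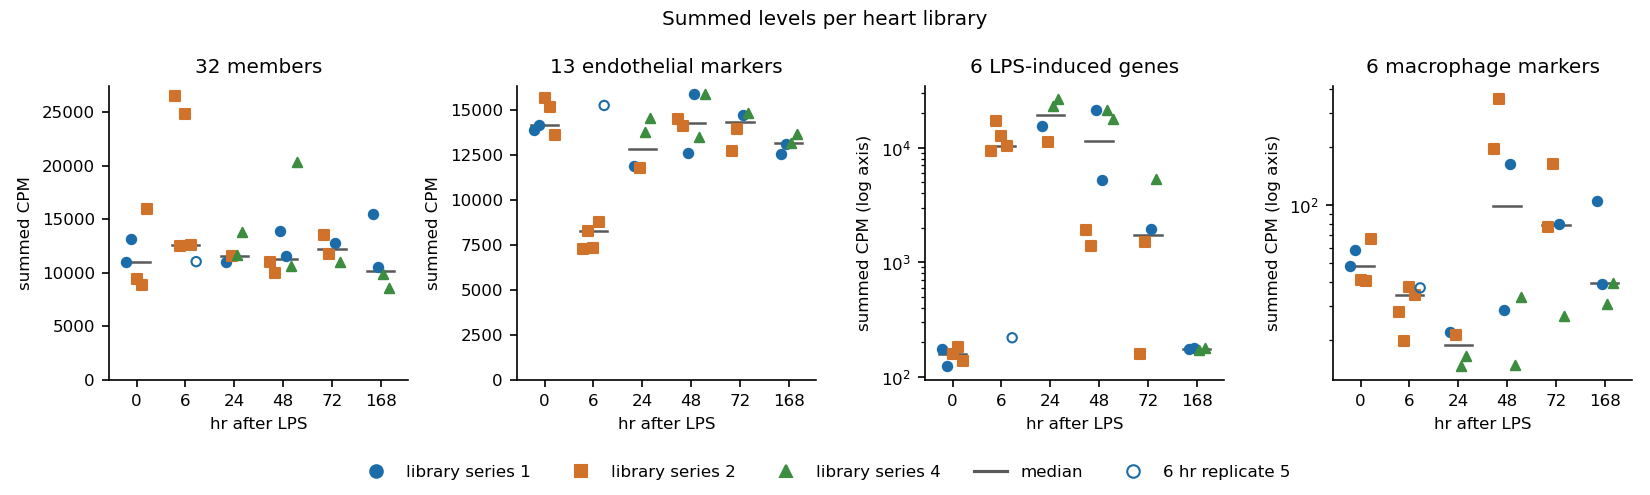
Summed CPM per heart library by hr after LPS for the 32 members, 13 endothelial markers, 6 LPS-induced genes and 6 macrophage markers; the last pair of axes are logarithmic, symbols give the library series, the open circle is 6 hr replicate 5 and bars are medians. Members reach 26564 and 24859 CPM in a pair of 6 hr libraries, while the endothelial markers fall to 7261 to 8783 CPM in 4 of the 5.

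The 48 hr hearts differed among themselves along several members at once. Replicates 1, 2 and 4 had Pln at 404, 499 and 426 CPM, Nebl at 57.6, 57.2 and 46.9 CPM and Myh7 at 67.8, 78.3 and 34.2 CPM. Replicates 3, 6 and 7 had Pln at 107, 56.7 and 74.7 CPM, Nebl at 23.7, 13.1 and 25.3 CPM and Myh7 at 5.38, 3.69 and 20.6 CPM. Xirp1 and Nppb ran the other way, with Xirp1 at 10.0, 10.8 and 22.4 CPM in replicates 1, 2 and 4 and at 168, 82.5 and 333 CPM in replicates 3, 6 and 7, and Nppb at 8.09, 13.7 and 23.0 against 184, 53.7 and 120 CPM. The LPS-induced sum was 1915, 1397 and 5191 CPM in replicates 1, 2 and 4 and 21561, 21235 and 17755 CPM in replicates 3, 6 and 7, and the macrophage marker sum was 195, 355 and 164 CPM against 28.4, 14.8 and 33.4 CPM. Replicates 1 and 2 are of library series 2, replicates 3 and 4 of series 1, and replicates 6 and 7 of series 4. Ankrd1 and Actc1 did not divide the libraries in this way, at 2384, 1995 and 4440 against 3182, 2554 and 4011 CPM for Ankrd1 and 144, 236 and 237 against 148, 111 and 151 CPM for Actc1. These sets were read from the values and were not compared by a test.

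Across the 28 hearts the members did not move as one. After removal of the series means, Pearson's r between members (log2 CPM) had a median of 0.285 over 496 pairs, of which 373 were above 0, with extremes of -0.747 and 0.941. Libraries share depth and composition, so these are descriptions. Correlation of each member with the mean standardised level of all 32 ran from -0.074 for Nppa, -0.048 for Ankrd1 and 0.00054 for Myh7 to 0.890 for Mybpc3, 0.893 for Atp2a2 and 0.919 for Tnnc1. The 5 genes outside the list whose levels were most like that mean level over the 28 libraries were Slc25a4 (r 0.927), Fxyd1 (0.924), Tmod1 (0.922), Ndufa13 (0.900) and Cox6a2 (0.896).

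Of the 31 other cardiomyocyte genes, 30 could be tested in heart. At 6 hr 5 rose and none fell, at 24 hr 1 rose and 4 fell, at 48 hr 3 fell, and at 72 and 168 hr none passed. These are 16.7% upward at 6 hr (22.4% of all genes), 3.33% upward and 13.3% downward at 24 hr (9.07% and 7.11%) and 10% downward at 48 hr (1.11%). Their median log2 fold change was 0.37 at 6 hr, -0.51 at 24 hr and -0.36 at 48 hr, beside 0.55, -0.28 and -0.26 for the members and -0.05, -0.04 and -0.01 for all genes. The 4 that fell at 24 hr were Lrtm1, a leucine-rich repeat membrane protein, the myosin gene Myh7b, the Z-disc and titin-binding adaptor Fhl2 and the titin splicing factor Rbm20. Lrtm1 went from 21.9 to 35.7 CPM at 0 hr to 3.53, 4.91, 2.76 and 5.17 CPM at 24 hr, a log2 fold change of -2.59 ± 0.41 (adjusted p 0.00095, edgeR) with no overlap. Fhl2 went from 102 to 200 CPM to 31.7, 66.9, 22.9 and 29.6 CPM at 24 hr, again with no overlap, at -1.66 ± 0.29 (adjusted p 0.00154). Myh7b stood at 26.1, 31.9, 8.56, 6.64 and 5.64 CPM at 0 hr and at 2.37 to 4.56 CPM at 24 hr, at -2.004 ± 0.57 (adjusted p 0.0226). Rbm20 went from 17.8 to 29.1 CPM to 7.11 to 15.3 CPM, at -1.21 ± 0.35 (adjusted p 0.0265). Of 8 cardiac transcription factors, Mef2c fell at 6 and 24 hr and the other 7 did not pass.

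In lung, 8 members rose at 6 hr and none at a later time, where 2.56% of 17058 genes rose and 2.27% fell at 6 hr. At 24, 48, 72 and 168 hr 0.363%, 0.428%, 0.17% and 0% of genes rose and 0.0117%, 0.17%, 0.0234% and 0.0117% fell. DESeq2 also called 0 members at these later times, and 3, 1, 2 and 2 members had an unadjusted p under 0.05 by edgeR. They were Ankrd1, Mb, Myl2, Myl3, Tpm1, Ttn, Xirp1 and Xirp2, and the median log2 fold change of the 32 members was 2.25, beside -0.42 for all genes. All 8 calls were lost without 0 hr replicate 3, and the count was 1 without 0 hr replicate 2, 2 without 6 hr replicate 2, 5 without 6 hr replicate 4 and 16 without 6 hr replicate 3. Over the course 6 members passed (18.8%, against 6.3% of all genes). Myl2 stood at 1.64, 2.53, 0.659 and 0.111 CPM at 0 hr and at 195, 171, 0.966 and 70.3 CPM at 6 hr, a log2 fold change of 6.07 ± 1.44 (adjusted p 0.0139, edgeR). Myl3 stood at 0.938, 0.894, 1.36 and 0.0556 CPM at 0 hr and at 112, 58.6, 2.61 and 17.6 CPM at 6 hr, the only one of these 4 genes whose groups did not overlap, at 5.54 ± 1.59 (adjusted p 0.0382). Xirp2 was 0.703, 0.0497, 0 and 0.278 CPM at 0 hr and 18.6, 29.3, 1.79 and 0 CPM at 6 hr, at 6.86 ± 1.74 (adjusted p 0.0208), and Xirp1 went from 0 to 1.44 CPM to 3.44, 21.2, 0.188 and 17.6 CPM, at 5.34 ± 1.58 (adjusted p 0.0444).

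The high values came from the 6 hr lungs with the fewest reads on genes. Replicates 1, 2 and 4 had 6.93%, 8.12% and 3.405% of reads on genes, and replicate 3, with 33.9%, had all 4 of these genes at 2.61 CPM or less. In replicates 1, 2, 3 and 4 the 10 most abundant genes took 43.4%, 71.4%, 12.4% and 94.1% of all counts, and the member sums were 2568, 4849, 784 and 1196 CPM, against 352 to 652 at 0 hr. Nebl alone made up a mean of 28.7% of the member sum at 0 hr (4.63% to 46.7%) and 36.2% at 6 hr (19.1% to 60.0%). In replicate 4, which has 284457 counts, a value of 17.6 CPM is a single count. By the run names it may be of the same mouse as heart 6 hr replicate 5. Without replicate 4, Xirp2 and Myl2 still passed at 7.52 ± 1.83 and 5.66 ± 1.56 (adjusted p 0.0194 and 0.0375, edgeR), while Myl3 and Xirp1 did not (adjusted p 0.0635 and 0.0515). Without 0 hr replicate 3 the adjusted p of Myl2 was 0.0754. Replicates 1, 2 and 4 also had brain cell markers at a sum of 164, 240 and 879 CPM, against 6.00 to 34.5 at 0 hr, and endothelial markers at 1821, 4590 and 2093 CPM, against 11515 to 17052. With the lung libraries limited to those with at least 10% of reads on genes, 0 members passed at 6 hr (0.863% of all genes rose), Myl2 was at -1.32, and the median of the 32 members was -0.08 with 14 above 0. That leaves replicate 3 as the single 6 hr lung. Lung 24 hr replicate 3 and 48 hr replicate 7 also carried ventricular transcripts, with Myl2 at 102 and 72.3 CPM, Ankrd1 at 93.6 and 66.2 CPM and Nppb at 15.5 and 12.4 CPM, at 32.7% and 37.3% of reads on genes. Their brain cell marker sums were 162 and 138 CPM, beside 17382 and 15428 CPM for the endothelial markers. Nebl ran from 13.9 to 2096 CPM over the 24 lungs.

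**Figure D4:**
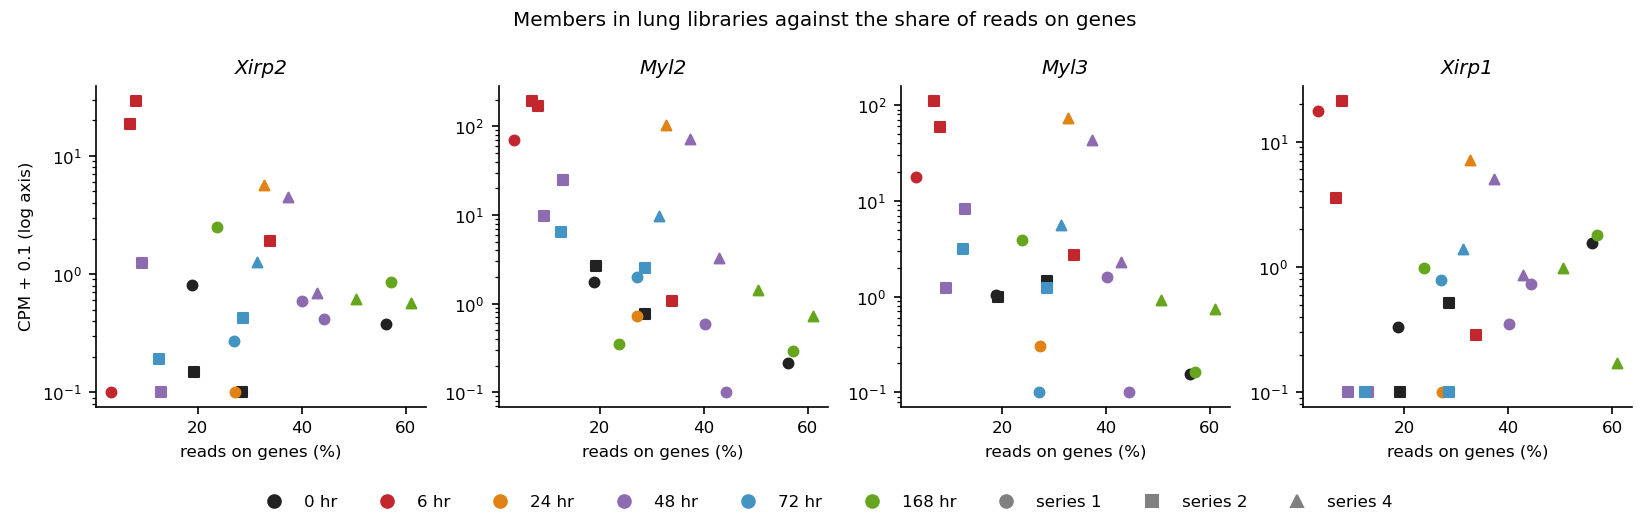
CPM plus 0.1 (log axis) of Xirp2, Myl2, Myl3 and Xirp1 in each of 24 lung libraries against the percentage of reads on genes; colours give hr after LPS and shapes the library series. The high 6 hr libraries (red) lie below 10% of reads on genes, and the 6 hr library at 33.9% lies among the other times.

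In brain, 24 of the 32 members had enough counts to be tested. Myl3, Myl7, Actc1, Csrp3, Xirp2, Nppb, Ckm and Ckmt2 did not, and Nppb was at 0 in 18 of 28 libraries. No member rose at any time, while 4.21%, 6.52%, 8.11% and 2.98% of 19234 genes rose at 6, 24, 48 and 72 hr. Nebl fell at 6, 24 and 48 hr, Myl2 at 48 hr and Tnnc1 at 72 hr, which is 1, 1, 2 and 1 members at these times, where 2.23%, 4.66%, 6.12% and 0.546% of all genes fell. By DESeq2 the counts of members were 1, 1, 3 and 2, where 9.27%, 16.1%, 19.5% and 6.11% of all genes passed. With no series covariate the counts were 0 at 6, 48 and 72 hr, and by limma-voom 0 at 72 hr. Myl2 was low in brain, at a mean of 0.560 CPM and at 18, 5, 2, 0, 12 and 6 counts at 48 hr. The 48 hr count of members fell to 1 without 0 hr replicate 1, 2 or 3 or 48 hr replicate 7. Over the course 4 members passed (16.7%, against 35.4% of all genes), namely Myh7, Nebl, Tnnc1 and Tpm1. At 168 hr none passed, and none had an unadjusted p under 0.05.

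Nebl, which also encodes the non-muscle isoform LASP2 that binds actin at focal adhesions, was 369, 407, 137, 200 and 161 CPM in the 0 hr brains and 72.4, 103, 66.1, 93.5 and 263 CPM at 6 hr, the last being replicate 6. It was 145, 60.0, 106 and 136 CPM at 24 hr, 98.6 to 157 CPM (median 127) at 48 hr, 111, 153, 227 and 154 CPM at 72 hr and 234, 280, 313 and 433 CPM at 168 hr. The groups overlapped at each time, and the 0 hr values of series 1 lay above those of series 2. The log2 fold change was -0.95 ± 0.27, -1.30 ± 0.31 and -0.93 ± 0.26 at 6, 24 and 48 hr (adjusted p 0.0293, 0.0096 and 0.0196, edgeR). The call was lost at 6 hr without 0 hr replicate 2 or 4 or any of 6 hr replicates 1 to 4, at 24 hr without replicate 2 of that time and at 48 hr without 0 hr replicate 2 (adjusted p up to 0.0763, 0.0503 and 0.0585). Within series 1 and 2 it was -0.56 and -0.99 at 6 hr, -1.42 and -1.45 at 24 hr and -1.54 and -0.17 at 48 hr. Series 1 at 6 hr and both series at 24 hr had 1 library each after LPS. Without 6 hr replicate 6 the 6 hr change was -1.26 ± 0.28 (adjusted p 0.0023, edgeR), and Tpm1 and Myom2 also passed, at -0.64 ± 0.19 and -2.08 ± 0.45. Myom2 had few reads, at 17 to 57 counts in the 0 hr brains and 10 to 14 in 6 hr replicates 1 to 4.

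Tpm1, whose products include the tropomyosins of non-muscle cells, was 531, 512, 311, 362 and 328 CPM at 0 hr and 256, 225, 235, 208 and 449 CPM at 6 hr, the last again replicate 6. It was 239, 256, 276 and 536 CPM at 24 hr, 274 to 458 CPM (median 326) at 48 hr, 352 to 471 CPM at 72 hr and 387, 518, 531 and 533 CPM at 168 hr. Its change at 6 hr was -0.49 ± 0.18 (adjusted p 0.116, edgeR). Atp2a2, present in most cell types, stood at 271 to 525 CPM at 0 hr and did not pass, with log2 fold changes of -0.32 to 0.12. Tnnc1 was low throughout, at 3.77, 1.72, 3.78, 5.05 and 5.21 CPM at 0 hr and 2.405, 2.32, 0.379 and 0.592 CPM at 72 hr, a log2 fold change of -1.57 ± 0.39 (adjusted p 0.0216, edgeR) with overlap, which was lost without 0 hr replicate 1 or 72 hr replicate 3 or 5 (adjusted p up to 0.106). Tpm1, Atp2a2 and Nebl made up most of the member sum in brain, which was 1163 to 1412 CPM at 0 hr. The sum of 6 brain cell markers ran from 1015 to 11099 CPM over the brain libraries, and its part in these values was not tested.

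**Figure D5:**
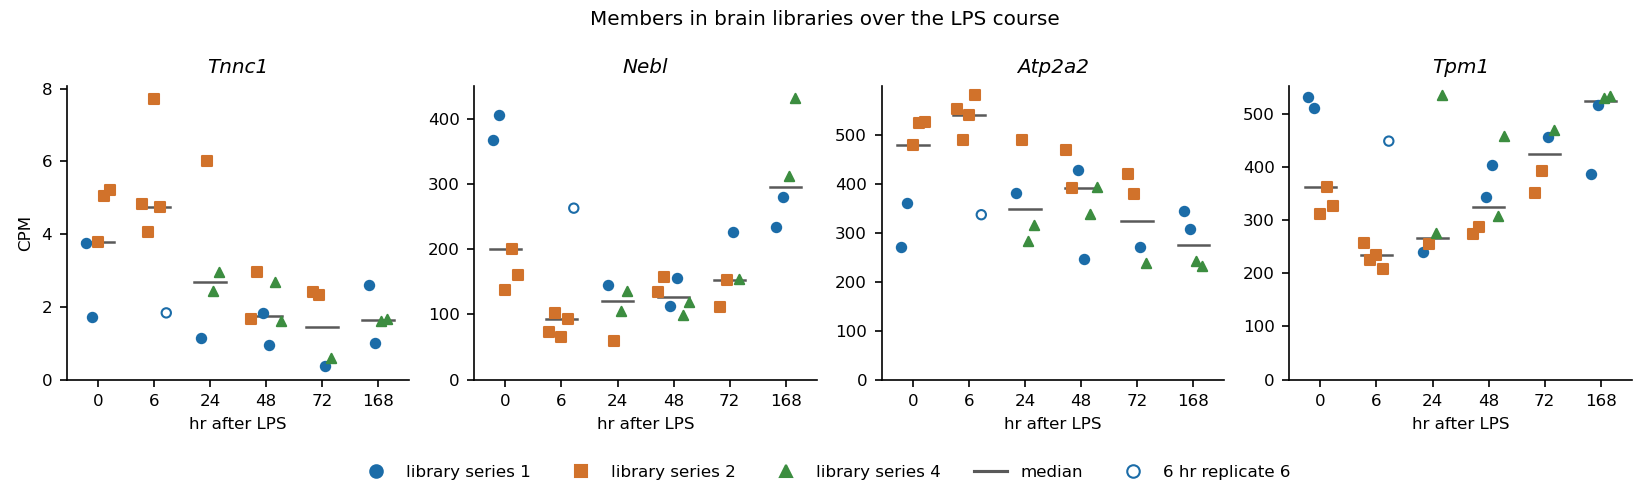
CPM of Tnnc1, Nebl, Atp2a2 and Tpm1 in each of 28 brain libraries by hr after LPS; symbols give the library series, the open circle is 6 hr replicate 6 and bars are medians. At 6 hr Nebl is 66.1 to 103 CPM and Tpm1 208 to 256 CPM in replicates 1 to 4, and replicate 6 lies at 263 and 449 CPM.

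The difference between tissues was tested directly in a fit of all 3 tissues over 22007 genes. The course of 17 members differed between heart and lung (53.1%, against 30.9% of all genes). The difference taken was the log2 fold change in heart minus that in lung, and its sign does not say in which tissue the size of the change was greater. At 6 hr it was below 0 for 15 members (6.93% of all genes) and above 0 for 1 (11.2%), at 24 hr for 4 (1.46%) and 1 (0.209%), and at 48 hr for 1 (0.768%) and 1 (0.364%). At 6 hr Myl2 was at -6.61 ± 1.25 (adjusted p 0.000208, edgeR). The 4 below 0 at 24 hr were Pln (-7.18), Myl2 (-5.95), Myl3 (-5.83) and Actc1 (-3.82). Lung at 24 hr had only 2 libraries, replicates 1 and 3, and these differed widely. Their counts were 4 and 782 for Pln, 3 and 2028 for Myl2, 1 and 1470 for Myl3 and 4 and 977 for Actc1. The high lung values at 24 hr are thus from replicate 3 alone. The 1 above 0 at each of these times was Myh7, at 3.16, 4.35 and 4.43, where Myh7 in heart passed at 48 hr alone and in lung at no time. Lung Myh7 was at 0 in 5 of 24 libraries, with 0, 0, 122 and 0 counts at 6 hr and 0 and 9 at 24 hr. Its differences at 6 and 24 hr thus involve lung values at or near 0 counts. All these heart and lung differences rest on the lung libraries described above. Without the 3 libraries of series 1 at 6 hr the course of 16 members differed. The course of 2 members differed between heart and brain (6.25%, against 2.87%), and of 3 without those libraries. They were Myh7, with a heart minus brain difference of 3.84 ± 0.82 at 48 hr (adjusted p 0.0103, edgeR), where 0.209% of genes were called higher and 0.254% lower, and Actc1, with -5.38 ± 1.23 at 24 hr (adjusted p 0.0193), where 0.182% and 0.145% were. Actc1 had too few counts to be tested in brain, at 0 in 6 of 28 libraries and at most 1.16 CPM, and it entered this fit through the other tissues, so the value is not a test of 2 measured courses. For Ankrd1 the difference at 48 hr was 3.496 ± 1.00 (adjusted p 0.0992) and over the course the adjusted p was 0.0875, with brain Ankrd1 at 0 to 2.73 CPM. All 3 tissues of a mouse enter these fits, and they share the 0 hr libraries of each tissue. Deviations from the group means were compared over pairs of libraries of the same time. Their median correlation was 0.234 over 74 pairs read from the run names as the same mouse. It was -0.0544 over 292 pairs of other mice. By limma-voom with the mouse as a random block, 9 courses differed between heart and lung and 0 between heart and brain, and by limma-voom without it 8 and 0.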

How the data were processed

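Translating ribosome affinity purification and RNA-seq were done by the authors on heart, lung and brain. Per the labels, reads were aligned with STAR 2.4.2 to mm10 and counted per gene with HTSeq 0.6.1, and the deposited files hold raw counts per gene and run. The annotation release and strand setting are not given in the sources used here. The 217 runs were summed to 98 libraries, and 18 libraries with under 3% of reads on genes (1.73% to 2.75%, all of library series 3, as numbered in the run names) were left out, which kept 80. Rows that name no gene stayed out of library sizes. edgeR 4.0.16 (R 4.3.3; TMM factors within each tissue, filterByExpr, quasi-likelihood test, library series as covariate, all times of a tissue in 1 fit) tested each time against 0 hr and all times jointly, with Benjamini-Hochberg adjustment over all tested genes at 0.05. Heart was set against lung and brain in 1 fit of the 3 tissues. CPM values used the same factors and can be compared within a tissue only. On simulated data, 92.5% of 200 genes changed 4-fold were recovered at 24 hr in heart (16024 genes), 69.0% in lung (17058) and 89.0% in brain (19234). Every simulated gene had a dispersion of 0.1, with no effect of series or of library quality. The spread of the members in the real libraries was not simulated, so these shares are not the power of the fits for the members.

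The members and lists were chosen with earlier results of these data known. Values per library are given in heart for the 2 members of each role group with the largest change past the threshold and a mean of at least 1 CPM, in lung and brain for 4 members by the same rule, filled up by level, and for 4 other cardiomyocyte genes. Tcap, Tnnt2, Nebl, Myl4, Myl7, Mef2c and the members that passed only in an alternative were named after their values were seen. Alternatives used DESeq2 1.42.0, limma 3.58.1 (voom), other scaling, filters and covariates, and leaving out each library.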

Additional observations from a re-analysis of the deposited data

Results flagged for a closer look

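In 3 of 104 groups of 4 to 10 libraries, a library lay far from the rest by Dixon's criterion, where chance gives about 1 in 20. Ankrd1 in heart 72 hr replicate 1 stood at 7.60 log2 CPM, against 10.0 to 10.3 in the other 72 hr hearts. This library also had the LPS-induced genes at 157 CPM. Tpm1 in brain 6 hr replicate 6 stood at 8.81 log2 CPM, against 7.70 to 8.00, and this library had the LPS-induced genes at 418 CPM. Tpm1 in brain 168 hr replicate 1 stood at 8.60 log2 CPM, against 9.02 to 9.06.

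The course after LPS differed between heart and brain for Actc1 (adjusted p 0.0227, edgeR) and Myh7 (adjusted p 0.0115). Actc1 had too few counts to be tested in brain, so its value is not a test of 2 measured courses, and by limma-voom neither gene passed. Between heart and lung it differed, among the genes given per library, for Actc1 (adjusted p 0.0101, edgeR), Ankrd1 (0.000587), Mybpc3 (0.00644), Myh7 (0.00107), Myl2 (7.98e-06), Myl3 (0.000233), Nebl (7.13e-05), Nppa (0.00317), Pln (0.000302), Xirp1 (0.00493) and Xirp2 (0.000278). The lung side of these differences holds the 6 hr lungs with 3.405% to 8.12% of reads on genes and only 2 libraries at 24 hr. Lung Myh7 was at 0 in 5 of 24 libraries.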

How the results depend on the processing

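Over the alternatives run, 178 counts of members stayed within 1.5 times the reported count, 26 were larger and 40 smaller. Of the log2 fold changes of named genes, 254 were counted as the same, 54 kept direction but lost the call, 13 moved and 5 turned. The same means that direction and call were kept. A mean within a library series has no call, and it counted as the same when within 1 SE of the fitted change. The 13 that moved were such means of the same direction, 1 SE or more away. The 5 that turned were, within library series 1 at 6 hr, heart Mybpc3 (-0.15), Tnnc1 (-0.25) and Ankrd1 (-0.82) and lung Xirp2 (-2.31), each from 1 library, and lung Myl2 with libraries of at least 10% of reads on genes (-1.32). The cause was not tested. The shallowest lung library has 284457 counts.

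In heart, the 6 members called at 6 hr were 3 by limma-voom, 11 with no filter and 1 with total counts as library sizes, where 13.1% of all genes rose and 31.4% fell in place of 22.4% and 20.3%. The 7 at 24 hr were 4 by limma-voom, the 5 at 48 hr were 3 by limma-voom and 8 with no filter, the 1 at 72 hr was 0 and 3, and the 12 over the course were 25 with no filter. In lung, the 8 at 6 hr were 21 by DESeq2, 1 by limma-voom, 16 with no filter, 5 with libraries of at least 1000000 counts, 2 with total counts and 0 with libraries of at least 10% on genes. The 6 over the lung course were 17, 0 and 19 by the first 3 of these, 10 with RLE factors, 11 with no series covariate, 3 with total counts and 1 with at least 10% on genes. Over all lung genes, 15.5% passed at 6 hr by DESeq2 and 20.3% over the course, against 4.83% and 6.3% in the reported fit. With total counts these shares were 1.97% and 3.65%, and with RLE factors 7.48% passed over the course. In brain, the 1 at 6 hr was 2 with no filter or total counts and 0 with no covariate. The 1 at 24 hr was 2 by limma-voom, with no filter, with no covariate and with total counts. The 2 at 48 hr were 0 with no covariate, the 1 at 72 hr was 2 by DESeq2 and with no filter and 0 by limma-voom, with no covariate and with all libraries, and the 4 over the course were 1 with all libraries. With total counts, 2.49% and 4.84% of all brain genes fell at 6 and 24 hr, and by DESeq2 6.11% passed at 72 hr. The 17 courses that differed between heart and lung were 8 by limma-voom, 28 with no filter and 9 by limma-voom with the mouse as a random block, and the 2 between heart and brain were 0, 8 and 0, and 1 with all libraries. For limma-voom, no filter, no covariate, all libraries and at least 1000000 counts, shares of all genes are not given here. Member counts under these settings are therefore not set against a background.

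Leaving out 1 library gave 1 to 10 members in heart at 6 hr (lowest without 0 hr replicate 3 or 4 or 6 hr replicate 1 or 3, highest without 6 hr replicate 5) and 3 to 8 at 24 hr (lowest without 24 hr replicate 2). It gave 3 to 6 in heart at 48 hr (lowest without 0 hr replicate 1, 2, 3 or 5, 24 hr replicate 2, 48 hr replicate 3 or 7, or 72 hr replicate 2 or 5). It gave 0 to 1 in heart at 72 hr and 10 to 17 over the course. In lung it gave 0 to 16 at 6 hr (without 0 hr replicate 3 and without 6 hr replicate 3) and 2 to 13 over the course (lowest without replicate 2 of 0, 6 or 72 hr, highest without 6 hr replicate 3). In brain it gave 0 to 3 at 6 hr (lowest without 0 hr replicate 2 or 4 or 6 hr replicate 1, 3 or 4, highest without 6 hr replicate 6). It gave 0 to 2 in brain at 24 hr (lowest without 24 hr replicate 2, highest without 24 hr replicate 5 or 6 hr replicate 6). At 48 hr it gave 1 to 4 (lowest without 0 hr replicate 1, 2 or 3 or 48 hr replicate 7, highest without 168 hr replicate 1). It gave 0 to 1 in brain at 72 hr and 2 to 5 over the course (lowest without 72 hr replicate 3). It was not run for the differences between tissues.

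Replicate numbers did not pair the libraries. Deviations of libraries with the same number had a median correlation of -0.0146 in heart, 0.0456 in lung and 0.0360 in brain. With the replicate block, 3 members were called in heart at 6 hr, 3 at 48 hr and 0 at 72 hr, 5 in lung at 6 hr, and 0 in brain at 6 hr and 0 at 72 hr.

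The total counts scaling, the lung limit of 10% and the fits without single 6 hr libraries or without the 3 of series 1 were chosen after seeing the data.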
